A study of Mus musculus with 2 samples.

Results

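The genes of insulin, AMPK and mTOR signalling were examined on arrays of gastrocnemius muscle from control and PGC-1β(i)skm-/- mice. A list of 40 genes was taken by symbol from the annotation of the array, and 39 of them were measured among 19936 named nuclear genes; Rps6kb1, encoding the S6 kinase S6K1, was not analysed here. The study used 2 arrays, 1 per genotype, and each was hybridized with muscle RNA pooled from 3 male C57BL/6 mice, 8 weeks old. Control mice, called wild-type in the sample labels, carried 2 copies of the PGC-1β L2 allele, with exon 5 floxed, and no Cre transgene (HSA-Cre-ERT2(0/0)/PGC-1β L2/L2). PGC-1β(i)skm-/- mice, called mutant below, carried the same alleles and the transgene HSA-Cre-ERT2(tg/0), whose human skeletal actin regulatory elements drive the recombinase in myofibres, so that vessels, nerves, connective tissue and immune cells of the muscle kept an intact gene. Both groups received tamoxifen at 7 weeks, 1 mg per day for 5 days, and were taken 1 week after the last dose. The transgene was present in the mutants only, and its own effect cannot be told apart from that of the deletion.

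Insulin and the insulin-like growth factors bind receptor tyrosine kinases that phosphorylate IRS adaptor proteins. PI3K then makes a membrane lipid that brings AKT to its activating kinase PDK1, and AKT acts in muscle on glucose transport through TBC1D4, on glycogen synthesis through GSK3 and on growth through mTOR. AMPK, a trimer of a catalytic α, a scaffolding β and a nucleotide-binding γ subunit, is activated when ATP is consumed, and it restrains mTOR through TSC2 and raptor. These proteins are controlled largely by phosphorylation, which an array of transcripts does not measure.

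The values are log2 signals per probe set, computed by the authors with RMA, and a difference is the mutant signal minus the control signal on this log2 scale. With 1 pooled array per genotype there is no replicate error and no test, so every difference below is a description of 2 arrays, and the number of arrays limits its precision. Signals of different genes come from different probes, so they do not rank transcript levels, and they were set against each other only to sort genes into bins of similar signal. The thresholds of the study's methods, ratios (mutant over control) of 0.8 or less and of 1.2 or more, were used for counts. Its results count genes lower by at least 1.2-fold, so counts at 1/1.2 or less are given as well. Over all probe sets the arrays had medians of 6.00 (control) and 6.02 (mutant). Ppargc1b, the targeted gene, had log2 signals of 7.87 and 7.06, a ratio of 0.569, the lowest of all 19936 genes.

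None of the 39 measured genes reached either threshold. A ratio of 0.8 or less was found for 0.652% of all named nuclear genes, and a ratio of 1.2 or more for 1.64%, so few would be found in any list this short. At 1/1.2 or less (1.69% of all genes), 1/1.5 or less (0.0401%) and 1.5 or more (0.0201%) the list likewise held 0 genes. The difference ranged from −0.19 for Tsc2 to 0.19 for Prkag3, and it was smaller than 0.05 in size for 20 genes and smaller than 0.1 for 29. At a threshold of 1.1-fold, 5 genes were lower in the mutant (12.8%, against 10.1% of all genes), namely Tsc2, Sirt3, Tbc1d4, Igf1r and Akt1, and 1 gene, Prkag3, was higher (2.56%, against 10.5%). Over the 39 genes, 27 (69.2%) had a difference below 0, with a median of −0.032, whereas 50.2% of all genes lay below 0, with a median of −0.00055. Most of the probe sets of these genes had a high signal: when all genes were put in 4 equal bins by mean signal, 30 lay in the highest bin, in which 58.5% of all genes were below 0 and the median was −0.015. In that bin 10.2% of all genes were lower and 4.21% higher at 1.1-fold, the latter nearer to the share of the list than 10.5%. Of the 30, 20 (66.7%) were below 0, with a median of −0.037. For scale, the standard deviation of the difference over all genes was 0.12, and 0.099 in the highest bin.

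The 3 branches were set beside all genes, of which 50.2% lay below 0, and 58.5% in the highest signal bin, with a median there of −0.015. The insulin receptor to AKT branch had a median difference of −0.043, with 11 of 15 genes (73.3%) below 0. The mTOR branch had a median of −0.061, with 5 of 7 genes (71.4%) below 0. The AMPK branch, made of 7 subunits and the 2 kinases Stk11 and Camkk2, had a median of −0.012, with 5 of 9 (55.6%) below 0. Over the 7 subunits alone the median was 0.0028, with 3 below 0 and 4 above. With the 2 kinases included, the medians of the branches lay within 0.05 of each other. Each branch held genes on both sides of 0, and their ranges overlapped. The insulin to AKT genes ran from −0.17 to 0.10, the mTOR genes from −0.19 to 0.038 and the AMPK genes from −0.11 to 0.19.

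**Figure D1:**
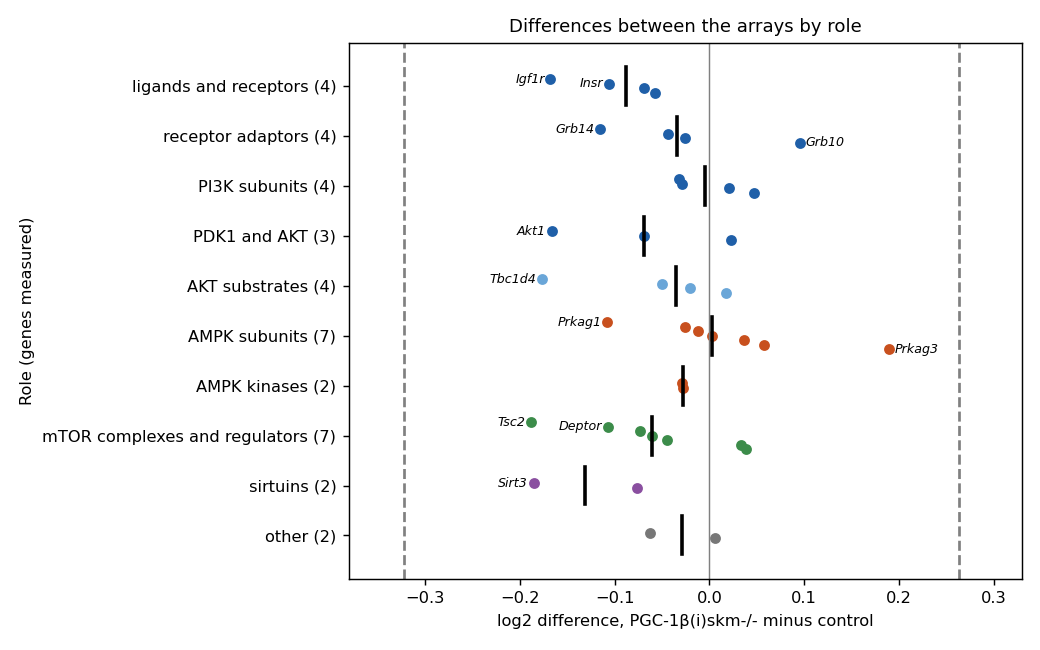
Points give the mutant minus control difference in log2 signal (horizontal axis), 1 per gene, by role in signalling (vertical axis, with the number of genes measured); colours mark the branches, black bars show medians, and the thresholds of 0.8 and 1.2 are dashed. All 39 points lie between the dashed lines, with Tsc2 and Prkag3 farthest from 0.

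At the top of the pathway, all 4 ligand and receptor genes were lower on the mutant array. Igf1r, the receptor of IGF-1, had log2 signals of 7.88 in control and 7.71 in mutant muscle, a difference of −0.17 and a ratio of 0.890, and 6.44% of all genes had a difference as low. Insr, the insulin receptor, had 9.99 and 9.88, a difference of −0.11. The difference of Igf1r minus that of Insr was −0.062. Insr had a further probe set, with 9.28 on both arrays and a difference of 0.0025, so that its lower signal was seen with 1 of its 2 probe sets. Igf1, which muscle fibres and stromal cells both secrete, had 8.77 and 8.70, and Igf2, a growth factor of the fetus and of regenerating muscle, had 8.23 and 8.18. Their differences were −0.069 and −0.057, and 24.4% and 28.3% of all genes had one as low.

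The promoter of Igf1r is shown because it was 1 of 2 members whose windows held the binding motif of ERR, the estrogen-related receptors that PGC-1 proteins coactivate. The window is chr7:67952007-67952306 of GRCm38.p6, plus strand, from RefSeq, covering 250 bases before the transcription start and 50 from it on, 5′ to 3′ along the gene. Capitals mark the motif TNAAGGTCA, read here on the opposite strand, with its first base in the window at position −86 from the start.
Igf1r: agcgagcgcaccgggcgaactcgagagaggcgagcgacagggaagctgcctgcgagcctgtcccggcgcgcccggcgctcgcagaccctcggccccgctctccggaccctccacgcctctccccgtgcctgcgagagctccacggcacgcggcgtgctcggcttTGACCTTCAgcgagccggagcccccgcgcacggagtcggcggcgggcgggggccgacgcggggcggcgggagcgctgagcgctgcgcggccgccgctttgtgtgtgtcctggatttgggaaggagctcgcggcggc
The remaining gene with this motif, Prkag2, had it at position −43 and a difference of 0.036, so that the 2 genes lay on opposite sides of 0.

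Of the receptor adaptors, Irs1 and Irs2, which carry the signal of the receptor to PI3K, were close to equal on both arrays. Irs1 had log2 signals of 8.98 and 8.94 and Irs2 of 7.54 and 7.51. A dimmer probe set of Irs1 had 5.25 and 5.41, a difference of 0.16, opposite in direction. Grb10 and Grb14, related adaptors that bind the insulin receptor and inhibit it, lay on opposite sides of 0. Grb10 had 8.80 in control and 8.89 in mutant muscle, a difference of 0.095, and Grb14 had 8.34 and 8.22, a difference of −0.12.

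The PI3K subunits differed least of the groups in this branch. The catalytic subunit Pik3ca had a log2 signal of 10.03 in control and a difference of −0.032, and Pik3cb had 8.27 and 8.29. The regulatory subunit Pik3r1 had 10.28 and 10.33 and Pik3r2 7.21 and 7.18. All 4 differences were between −0.032 and 0.047.

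Pdpk1, which encodes the AKT-activating kinase PDK1, had log2 signals of 10.02 and 10.04. Akt1, the form needed for growth, had 9.11 in control and 8.95 in mutant muscle, a difference of −0.17 and a ratio of 0.891, and Akt2, the form needed for insulin-stimulated glucose uptake, had 11.55 and 11.48, a difference of −0.069. The second probe set of Akt2, of nearly the same signal, gave −0.040. Both AKT genes were thus lower on the mutant array, Akt1 by more. Pdk1, which shares its name with that kinase but encodes pyruvate dehydrogenase kinase 1, a mitochondrial inhibitor of pyruvate oxidation, had 9.06 in control and a difference of −0.063.

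Of the AKT substrates, Tbc1d4, the Rab GTPase-activating protein that holds back the glucose transporter GLUT4 until it is phosphorylated, had log2 signals of 8.45 and 8.27, a difference of −0.18 and a ratio of 0.885. Its paralogue Tbc1d1, a substrate of AMPK as well, had 10.07 and 10.02. The glycogen synthase kinases Gsk3a, with 10.69 and 10.71, and Gsk3b, with 10.22 and 10.20, had differences of 0.017 and −0.020. Trib1, a pseudokinase scaffold of the family that also holds the AKT-binding protein TRIB3, had 7.48 on both arrays, a difference of 0.0058.

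**Figure D2:**
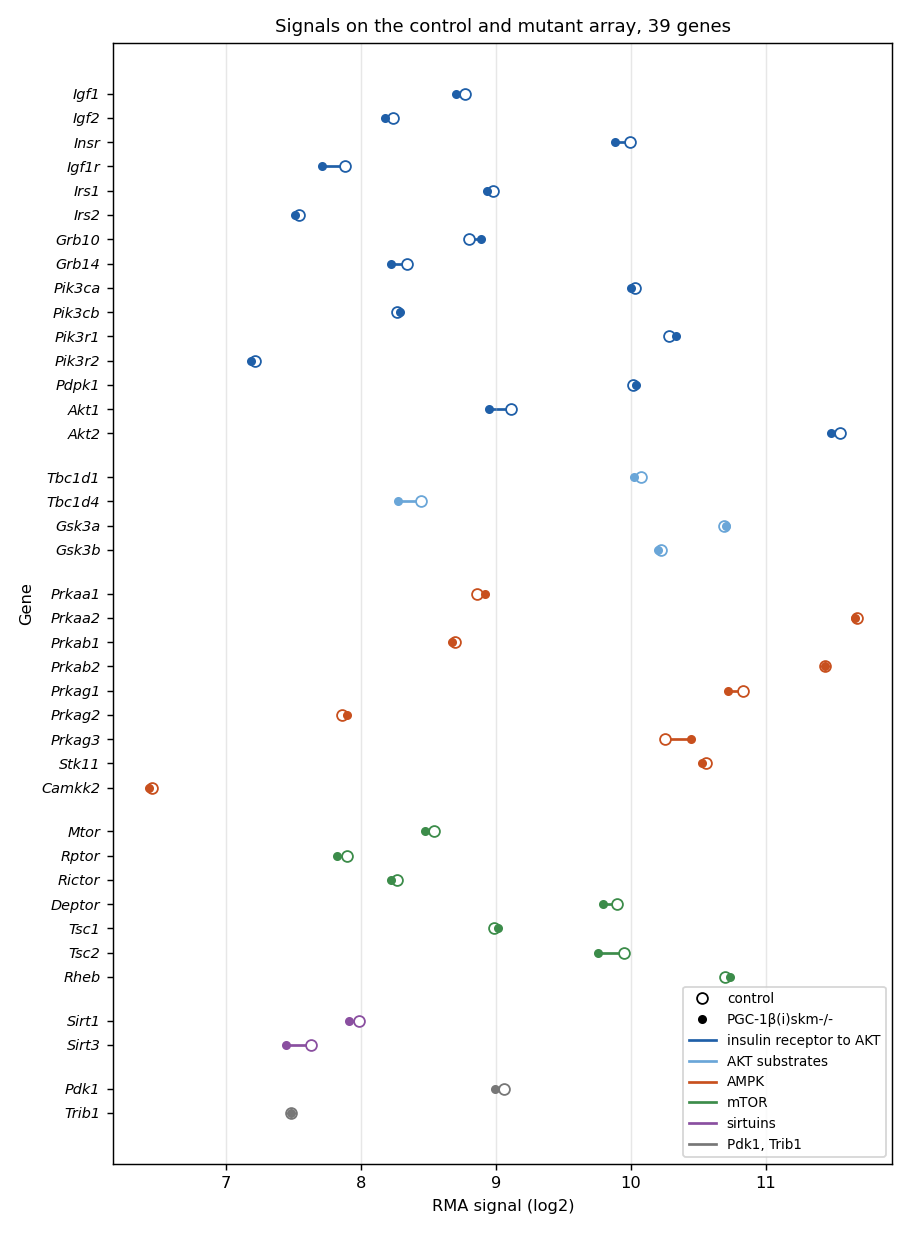
Each row is 1 of 39 genes (vertical axis), with its RMA log2 signal (horizontal axis) on the control array as an open and on the PGC-1β(i)skm-/- array as a filled circle; colours mark the branches, and positions of different genes come from different probes. The longest lines are those of Prkag3, which runs to the right, and of Tsc2, Sirt3, Tbc1d4, Igf1r and Akt1, which run to the left.

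Among the 7 AMPK subunits, Prkag3 and Prkag1 were farthest from 0, on opposite sides. Prkag3, encoding γ3, the form found mainly in fast-twitch muscle fibres, had log2 signals of 10.25 (control) and 10.44 (mutant), a difference of 0.19 and a ratio of 1.14. It was the highest difference of the whole list, and 5.05% of all genes, and 1.73% of those in the same signal bin, had one as high. Prkag1, encoding the widely expressed γ1, had 10.83 and 10.72, a difference of −0.11, and Prkag2, encoding γ2, had 7.86 and 7.90. The differences of Prkag3 and Prkag1 were 0.30 apart. The catalytic and scaffolding subunits lay closer to 0 than these 2 genes. Prkaa2 and Prkab2, encoding the α2 and β2 subunits that pair with γ3 in muscle, had differences of −0.012 and 0.0028, with signals of 11.68 and 11.66 for Prkaa2 and 11.44 on both arrays for Prkab2. Prkaa1 had 8.86 and 8.91 and Prkab1 had 8.70 and 8.67.

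The window of Prkag3 is shown as the promoter of the gene with the highest difference of the list. It is chr1:74748906-74749205 of GRCm38.p6, minus strand, from RefSeq, 5′ to 3′ along the gene. It held neither the ERR motif nor CCGGAAG, the motif of GABP (NRF-2), another factor coactivated by PGC-1 proteins, and so has no capitals.
Prkag3: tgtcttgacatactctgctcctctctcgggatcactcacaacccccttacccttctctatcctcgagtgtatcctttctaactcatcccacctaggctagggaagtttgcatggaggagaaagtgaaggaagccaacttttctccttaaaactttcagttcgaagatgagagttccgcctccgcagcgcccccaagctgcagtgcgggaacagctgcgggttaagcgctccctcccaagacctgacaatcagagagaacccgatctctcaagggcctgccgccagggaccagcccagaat

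The kinases that activate AMPK were close to equal between genotypes. Stk11, encoding LKB1, had log2 signals of 10.56 and 10.53, and Camkk2, a calcium-dependent kinase, had 6.45 and 6.42, a difference of −0.028.

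In the mTOR branch, Tsc2 was farthest from 0. Tsc2, encoding tuberin, the part of the TSC complex that switches off RHEB, had log2 signals of 9.95 in control and 9.76 in mutant muscle, a difference of −0.19 and a ratio of 0.878, the lowest of the list; 4.87% of all genes had a difference as low. Its partner Tsc1 had 8.98 and 9.02, so that the 2 subunits of 1 complex were 0.22 apart, and Rheb, the GTPase that activates mTORC1, had 10.70 and 10.74. Deptor, an inhibitor bound to both mTOR complexes, had 9.90 and 9.79, a difference of −0.11. The kinase Mtor had 8.54 and 8.48, Rptor, which defines mTORC1, 7.89 and 7.82, and Rictor, which defines mTORC2, 8.27 and 8.22. The 3 differences, −0.061, −0.073 and −0.045, were of 1 direction and small. Of all genes, 27.1%, 23.4% and 32.4% had a difference as low.

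Sirtuins are NAD-dependent deacylases that link the energy state to PGC-1 proteins and mitochondria. Sirt1, of the nucleus, had log2 signals of 7.99 and 7.91, and Sirt3, the main deacetylase of mitochondria, 7.63 and 7.44, a difference of −0.19 and a ratio of 0.880. Of the list, Sirt3 was second to Tsc2 among the lower genes.

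The windows of Tsc2 and Sirt3 are shown because these genes had the lowest differences of the list and both held the GABP motif, CCGGAAG, marked in capitals on either strand. They are chr17:24632578-24632877 for Tsc2, with matches beginning at positions −8 and 11 from the start, and chr7:140882260-140882559 for Sirt3, with a match beginning at position −85, both on the minus strand of GRCm38.p6, from RefSeq, 5′ to 3′ along the gene.
Tsc2: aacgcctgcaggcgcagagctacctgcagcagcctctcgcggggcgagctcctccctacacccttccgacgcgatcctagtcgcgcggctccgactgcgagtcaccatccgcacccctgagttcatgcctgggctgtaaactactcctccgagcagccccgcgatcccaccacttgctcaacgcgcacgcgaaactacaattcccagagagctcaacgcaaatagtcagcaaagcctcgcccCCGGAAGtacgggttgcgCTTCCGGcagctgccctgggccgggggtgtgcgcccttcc
Sirt3: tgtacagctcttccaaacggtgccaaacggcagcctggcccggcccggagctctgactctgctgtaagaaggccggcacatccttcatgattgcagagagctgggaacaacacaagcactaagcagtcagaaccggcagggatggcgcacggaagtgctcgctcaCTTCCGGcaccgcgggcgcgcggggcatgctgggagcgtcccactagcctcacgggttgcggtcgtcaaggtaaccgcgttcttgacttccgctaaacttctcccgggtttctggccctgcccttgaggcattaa
Sirt3 had a second annotated start without a match. The other genes of the list with this motif were Prkag1 (−0.11), Mtor (−0.061), Pik3ca (−0.032), Pik3r2 (−0.029) and Prkab1 (−0.026), all below 0. Tbc1d4, Igf1r and Akt1, lower by more than these, had no GABP match in their windows. Of all 39 measured genes, 27 (69.2%) were below 0, and a link of the motif to the differences was not tested.

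Promoter windows were found for 37 of the 40 genes, 52 windows in all; Insr, Deptor and Trib1 had none. They were searched on both strands for 7 motifs, and no matches of different motifs overlapped. CCGGAAG was in 7 of 52 windows (13.5%), against 8.86% of 32851 windows of all genes, and TNAAGGTCA in 2 (3.85%), against 1.28%. The median GC content was 64.0% in the windows of the list and 52.7% in all windows, which was not matched. TGTTTAC, a FOXO motif, was in 2 windows, of Akt1 and Stk11 (3.85%, against 3.65%), and the E-box CACGTG in 4, of Irs1, Irs2, Rheb and Sirt1 (7.69%, against 7.15%). The 10-letter palindrome of NRF-1, TGACGTCA of CREB and CTAAAAATA of MEF2 were in none of the 52, against 0.971%, 1.79% and 0.517% of all windows. A match describes the letters of a window and not a bound site.

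**Figure D3:**
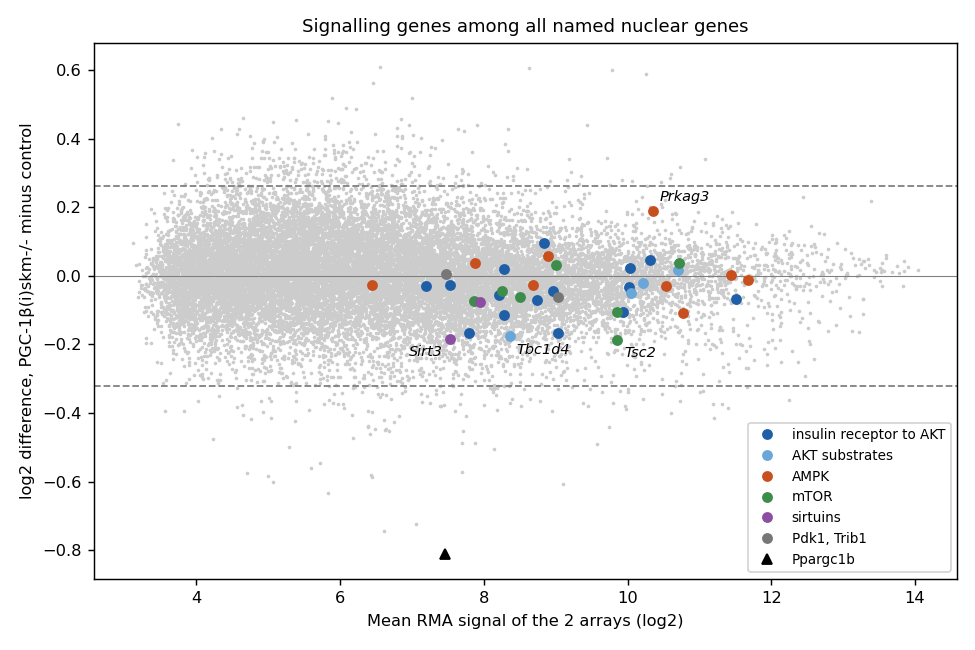
Grey points are the named nuclear genes, with the mean of both log2 signals on the horizontal and the mutant minus control difference (log2) on the vertical axis; coloured points are the 39 signalling genes by branch, the triangle is Ppargc1b, and the thresholds of 0.8 and 1.2 are dashed. The coloured points lie inside the grey cloud, with 30 of them in the highest of 4 signal bins, and Ppargc1b is the lowest point.

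Further genes of these pathways were grouped in 6 lists, with 127 of 133 genes measured. Of these, 1 had a ratio of 0.8 or less, Ddit4, and none a ratio of 1.2 or more, and the median difference was −0.019. The 1 gene is 0.787% of the 127, near the 0.652% of all genes at this threshold, against 1.64% of all genes at 1.2 or more. At 1/1.2 or less there were 3, Ddit4, Socs2 and Sirt4 (2.36%, against 1.69% of all genes). Ddit4 encodes REDD1, a stress-induced protein that inhibits mTORC1 through the TSC complex, and it had log2 signals of 9.20 and 8.87, a difference of −0.33 and a ratio of 0.796, just past the threshold. With a loess curve of differences against signal taken off, it was at −0.31 and no longer past it. Its paralogue Ddit4l, encoding REDD2, had 10.84 and 10.67, a difference of −0.17. Akt1s1, encoding PRAS40, another inhibitor of mTORC1, had a difference of −0.11, and Castor1, an arginine sensor that restrains mTORC1, of 0.17, so that inhibitors lay on both sides of 0. Over the 40 mTOR partners, sensors and substrates, 22 were below 0 (55%, against 50.2% of all genes). The median was −0.0091, but −0.032 over genes with a mean log2 signal of 7 or more and −0.033 with the probe set of largest difference. The translation repressor Eif4ebp1, a target of mTORC1, had a difference of 0.11.

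Of the 21 genes that bind insulin-like growth factors or regulate the receptors, 9 were below 0 (42.9%, against 50.2% of all genes), with a median of 0.011. The gene farthest from 0 was Socs2, an inhibitor of growth hormone signalling, with log2 signals of 9.94 and 9.65 and a difference of −0.29; the mean of its probe sets was at −0.25. For PI3K, AKT and their inhibitors, 11 of 18 were below 0 (61.1%, against 50.2% of all genes), with a median of −0.022. Prkcz, an atypical protein kinase C, was farthest from 0, with 6.72 and 6.97, a difference of 0.25. These values are of the brighter of its 2 probe sets. For insulin effectors in muscle, 8 of 17 were below 0 (47.1%, against 50.2% of all genes), with a median of 0.0031. Of these, Stx4a, encoding syntaxin 4, to which vesicles with GLUT4 dock, had 8.23 and 7.97, a difference of −0.26. The transporter itself, Slc2a4, had 11.40 and 11.41, and Hk2, the hexokinase that traps glucose in muscle, 10.42 and 10.41. Both genes were close to equal on the 2 arrays. Foxo3 had the highest difference of these effectors, 0.19, with a ratio of 1.14.

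For AMPK partners and substrates, 14 of 21 (66.7%) were below 0, against 50.2% of all genes and 58.5% of those in the highest signal bin. The median was −0.041, and −0.022 after loess subtraction. Fnip2, a folliculin-interacting protein that binds AMPK, was farthest from 0, with log2 signals of 6.42 and 6.18 and a difference of −0.25, and its paralogue Fnip1 had a difference of 0.074. For sirtuins other than Sirt1 and Sirt3 and for NAD synthesis, 9 of 10 were below 0 (90%, against 50.2% of all genes). The median of −0.099 was the lowest of the 6 lists, which were chosen with earlier results of these data known. Sirt4, another mitochondrial sirtuin, had 7.29 in control, a difference of −0.29 and a ratio of 0.816. Nmrk2, the nicotinamide riboside kinase of muscle, had 9.10 and 8.86, a difference of −0.23, and Nampt, the rate-limiting enzyme of NAD salvage, 10.91 and 10.79, a difference of −0.12. Sirt5, also of mitochondria, had a difference of −0.067 and Sirt2, of the cytosol, 0.066, the only one above 0.

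**Figure D4:**
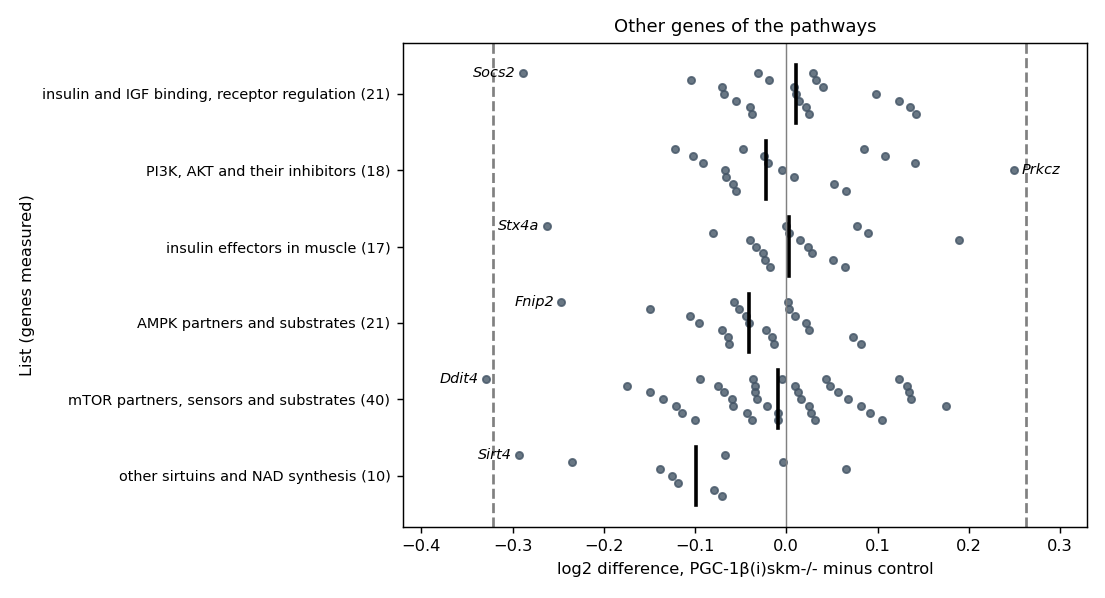
Points give the mutant minus control difference in log2 signal (horizontal axis) for further genes of the pathways, in 6 lists (vertical axis, with the number of genes measured); black bars show medians, the thresholds of 0.8 and 1.2 are dashed, and the gene farthest from 0 is named. Medians lie between −0.099, for sirtuins and NAD synthesis, and 0.011, and Ddit4 is the only point past a dashed line, which it does not pass after loess subtraction.

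Markers of skeletal myofibres were detected with log2 signals of 10.58 or more on both arrays, with a median difference of 0.012 over 10 genes. Of these, Myh1, a myosin heavy chain of fast fibres, had a difference of −0.16 and a ratio of 0.894, lower at 1.1-fold. All 10 fibroblast and tendon markers were higher on the mutant array, with differences from 0.054 to 0.32 and a median of 0.20. Of 10 macrophage markers 9 were higher, with a median of 0.26 and means of 6.98 and 7.19. Among all genes 50.2% lay below 0. A ratio of 1.2 or more was found for 3 fibroblast and tendon and 5 macrophage markers, against 1.64% of all genes. Mbp, of Schwann cells, was the only marker at 0.8 or less, with a ratio of 0.791 (0.652% of all genes at 0.8 or less). The 7 adipocyte markers had means of 7.45 and 7.52, the 8 endothelial markers 8.68 and 8.71, the 6 satellite cell markers 6.70 and 6.80, and the 4 Schwann cell markers, each lower in the mutant, 7.78 and 7.63. Igf1, Igf2, Pik3cd (difference 0.14) and Inpp5d (0.11) are expressed by stromal or immune cells as well. The part of these cells in the values of the signalling genes was not tested. In whole muscle a change in the number of cells of a type and a change in RNA per cell cannot be told apart.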

How the data were processed

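Per the methods of the paper, labelled cDNA from 150 ng of total RNA was hybridized to Affymetrix Mouse Gene 1.0 ST arrays. The deposited log2 signals were made by the authors by RMA in Expression Console 1.1, from intensities read by GeneChip Command Console 3.2 (background correction, quantile normalization and median polish). Quantile normalization hides a shift of all genes together, and RMA compresses differences of dim probe sets. No genome build for the probe sets was stated in what was used here.

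Of 35556 probe sets, 21789 had 1 gene symbol, 12146 were unnamed in the table used, and 1621 with several symbols were left out. Symbols were updated by Entrez ID through RefSeq genes of GRCm38.p6 (21698 matched). Each gene was represented by its probe set of highest mean, without a filter on signal. No test was made. All 40 listed genes are described; of each pathway list, genes past a threshold and the gene farthest from 0 are named, and other names were picked with their values known. The members and lists were chosen with earlier results of these data known. Promoter sequences are those of RefSeq for GRCm38.p6. The calculation was tested on simulated data with shifts larger than any difference of the listed genes, so differences of their size were not covered. As alternatives, probe sets of a gene were averaged or the one of largest difference taken, probe sets naming several genes were admitted, genes under a mean log2 signal of 6 or 7 were dropped, a loess curve (span 0.3) or the median difference was subtracted, and thresholds were set at 1/1.2, 1.1-fold and 1.5-fold. Calculations used statsmodels 0.14.6, pandas 2.3.3 and numpy 2.4.6 under Python 3.11.15.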

Additional observations from a re-analysis of the deposited data

How the results depend on the processing

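None of the 39 signalling genes had a ratio of 0.8 or less or of 1.2 or more under any of the 7 alternatives of probe set, filter or scaling, nor at 1/1.2 or 1.5-fold; at 1.1-fold, 5 were lower and 1 higher. Of the further pathway genes, 3 were lower at 1/1.2 (2.36%, against 1.69% of all genes) and none at 1.5-fold, and at 1.1-fold 10 were lower (7.87%, against 10.1%) and 5 higher (3.94%, against 10.5%). After loess subtraction 0 were lower, since Ddit4 then had a difference of −0.31. The median of the insulin receptor to AKT branch ranged from −0.043 to −0.029 over these alternatives, that of the AMPK branch from −0.012 to −0.0048 and that of the mTOR branch from −0.061 to −0.041. Irs1 had a difference of 0.059 with the mean of its probe sets and 0.16 with the dimmer one, and Insr −0.052 with the mean. The median of the list of other sirtuins and NAD synthesis was −0.13 at a mean log2 signal of 7 or more. No paired analysis was possible because each genotype had 1 array. Nor could a replicate be left out. Depth does not apply to arrays, and no measure of signal over background was used, so that the dimmest genes are the least certain.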
